A study of Mus musculus with 16 samples.

Results

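The E2F transcription factors E2f1 to E2f8 and the pocket proteins Rb1 and Rbl1 were followed across all 7 groups of an array experiment on mouse tissue macrophages. They were taken by gene symbol, a choice made with earlier results of these data known. The 10 genes are represented by 11 probe sets, out of 30177 probe sets and 19938 genes with a probe set of a single symbol. All 10 passed the filter on dim signals and were among the 11634 genes tested.

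The study asked how the transcription factor Bhlhe40 shapes macrophages at rest and under interleukin 4. Alveolar macrophages (AM) were sorted from lung digests, and large peritoneal macrophages (LPM) from peritoneal lavage, of male C57BL/6 mice. Untreated AM came from Bhlhe40+/+ mice (WT, 2 arrays) and Bhlhe40-/- mice (KO, 2 arrays), and untreated LPM from WT (3 arrays) and KO mice (3 arrays). LPM from mice injected with IL-4 complex (IL-4c) on days 0 and 2 and killed on day 4 came from WT (2 arrays), KO (2 arrays) and LysM-Cre+ Bhlhe40fl/fl mice (LysM, 2 arrays). LysM-Cre acts in myeloid cells, macrophages and neutrophils among them, and may leave the gene intact in some of them. The arrays compared with the LysM arrays came from Bhlhe40+/+ mice with no Cre in their labels. Nothing in the labels tells whether the replicate arrays of a group hold RNA of different animals, of pools or of 1 extract, and the p-values cover their spread alone, which may be technical. Values are log2 signals after RMA, a method that quantile-normalizes the probes of arrays processed together, and a difference of 1 is a doubling.

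E2F proteins switch on the genes for DNA replication at the passage from G1 to S phase. In resting cells the pocket proteins hold them inactive or turn them into repressors, until cyclin-dependent kinases phosphorylate the pocket proteins and free the E2Fs. E2f1, E2f2 and E2f3 are the classical activators, E2f4 and E2f5 work mainly as repressors bound to pocket proteins, E2f6 silences genes with Polycomb proteins and binds no pocket protein, and E2f7 and E2f8 are atypical repressors that need no DP partner and restrain E2F targets later in the cycle. Several E2F genes are themselves E2F targets. Resident peritoneal macrophages are known to divide in place when exposed to IL-4.

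The promoters are shown for the words read by the E2F and MuvB complexes, whose link to the IL-4c response was not tested. E2f3, with both kinds of word, was not called with IL-4c in WT LPM by its main probe set. E2f1 and E2f6 were called higher, and the windows searched for them held neither word. RefSeq start-site windows on GRCm38.p6, each with 250 bases before the start and 50 from it on, were found for 7 of the 10 genes, in 9 windows. Capitals mark E2F words (TTTCCCGC, TTTCGCGC, TTTGGCGC or TTTGCCGC, either strand) and the cell-cycle homology region word (CHR, TTTGAA, either strand), to which the MuvB complexes bind. The letters run 5′ to 3′ on the strand of the gene, and the 5 windows are chr4:136172024-136172323 (+), chr13:29986014-29986313 (-), chr10:110745189-110745488 (+), chr7:48881547-48881846 (-) and chr2:157204485-157204784 (-), in the order printed.
E2f2: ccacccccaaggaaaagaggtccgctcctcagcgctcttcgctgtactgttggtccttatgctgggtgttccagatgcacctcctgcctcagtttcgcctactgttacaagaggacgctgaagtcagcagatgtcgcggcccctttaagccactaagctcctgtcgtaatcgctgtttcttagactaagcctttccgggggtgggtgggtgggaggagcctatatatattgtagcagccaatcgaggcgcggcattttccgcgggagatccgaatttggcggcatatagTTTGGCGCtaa
E2f3: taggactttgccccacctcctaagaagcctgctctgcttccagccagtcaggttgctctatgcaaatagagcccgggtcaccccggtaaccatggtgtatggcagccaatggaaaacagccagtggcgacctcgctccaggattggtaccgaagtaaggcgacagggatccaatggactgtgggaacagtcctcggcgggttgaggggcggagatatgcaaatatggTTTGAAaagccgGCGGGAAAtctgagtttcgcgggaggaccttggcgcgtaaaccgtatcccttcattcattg
E2f7: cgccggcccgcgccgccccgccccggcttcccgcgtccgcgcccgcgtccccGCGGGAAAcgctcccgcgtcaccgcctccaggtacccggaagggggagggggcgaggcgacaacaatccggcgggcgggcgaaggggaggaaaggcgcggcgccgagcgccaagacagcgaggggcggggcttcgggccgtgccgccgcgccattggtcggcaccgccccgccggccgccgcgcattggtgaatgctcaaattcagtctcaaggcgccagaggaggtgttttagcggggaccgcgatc
E2f8: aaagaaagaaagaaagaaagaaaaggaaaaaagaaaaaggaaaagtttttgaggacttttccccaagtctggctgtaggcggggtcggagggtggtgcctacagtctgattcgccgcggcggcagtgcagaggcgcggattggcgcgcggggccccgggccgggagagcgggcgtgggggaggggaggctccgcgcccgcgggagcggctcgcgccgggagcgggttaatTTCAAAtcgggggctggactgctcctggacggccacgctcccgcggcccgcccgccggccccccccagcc
Rbl1: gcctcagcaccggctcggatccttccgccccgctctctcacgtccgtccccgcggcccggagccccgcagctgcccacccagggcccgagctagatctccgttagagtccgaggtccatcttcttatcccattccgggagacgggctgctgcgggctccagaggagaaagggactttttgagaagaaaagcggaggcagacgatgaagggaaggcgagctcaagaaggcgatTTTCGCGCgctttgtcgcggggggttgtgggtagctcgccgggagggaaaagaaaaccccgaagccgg

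The E2F word of E2f2 began 39 bases after the start, that of E2f3 11 bases before it, that of E2f7 198 bases before it and that of Rbl1 18 bases before it. Thus 4 of 7 genes held an E2F word, against 704 of 27025 genes (2.6%) with windows of the same length. The E2f8 window, on a start site 477 bases inside the outer start of the gene, had no E2F word and a CHR word 20 bases before the start. The E2f3 window shown had a CHR word 23 bases before the start, and a second E2f2 window, inside the gene, also held one. CHR words occurred in 3 of the 7 genes and in 20.2% of all genes. The windows of E2f1, on a start site 466 bases inside the outer start, and of E2f6 held none of these words. The E-box CACGTG, a palindrome read by basic helix-loop-helix factors such as Bhlhe40, was present in the second window of E2f3, 24 bases before that start, and in no other window of the 7 genes, against 8.09% of all genes. That second E2f3 window held no E2F word and no CHR word. These are matches of letters in the windows searched and do not show binding.

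**Figure D1:**
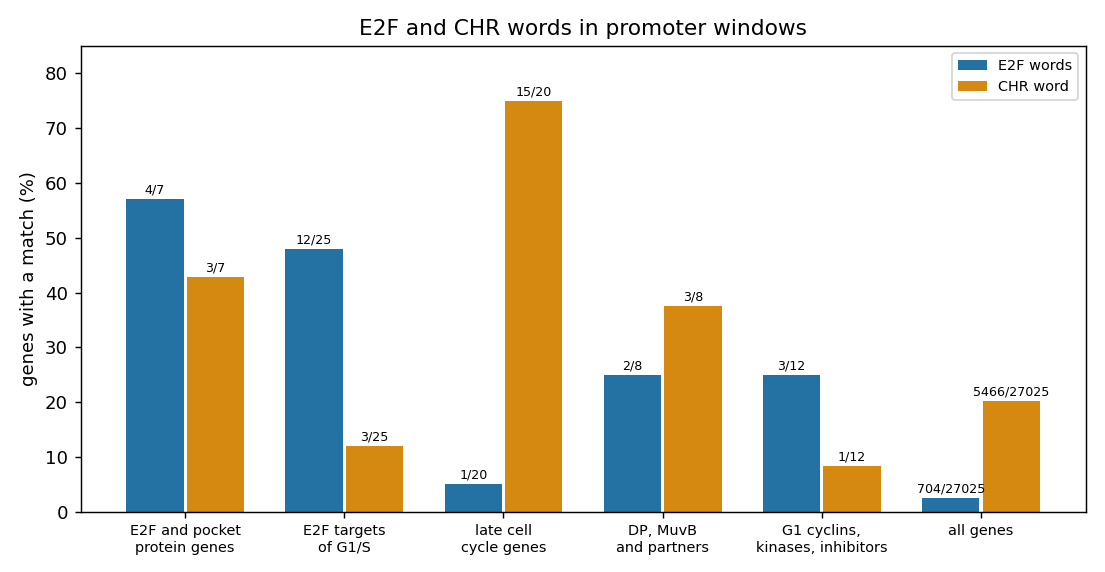
Share of genes whose promoter windows hold an E2F word or a CHR word (y axis, percent of genes with a window), with counts above the bars. An E2F word is held by 4 of 7 E2F and pocket protein genes, 12 of 25 G1/S targets and 704 of 27025 genes, and a CHR word by 15 of 20 late cell cycle genes.

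Of the 25 G1/S targets with a window 12 held an E2F word and 3 a CHR word, and of the 20 late cell cycle genes 1 held an E2F word and 15 a CHR word. The counts are descriptions, because both lists were drawn up from known targets.

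On GRCm38.p6, E2f1 (154559400 to 154569892) and Rbl1 (157145893 to 157204534) lie together on chromosome 2, and the other genes on a chromosome each. E2f2 lies on chromosome 4 (136172274 to 136196057), E2f5 on 3 (14578602 to 14606309), E2f8 on 7 (48866429 to 48882073) and E2f4 on 8 (105297663 to 105305370). E2f7 lies on 10 (110745439 to 110787384), E2f6 on 12 (16810909 to 16826752), E2f3 on 13 (29906575 to 29986064) and Rb1 on 14 (73192858 to 73325951). Which E2f3 isoforms its 2 probe sets measure was not determined.

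Array medians lay between 4.79 and 4.93. The maximum per array ran from 13.15 to 13.33 in the untreated groups and from 13.67 to 13.84 under IL-4c, so these sets stood apart at the top of the scale. Whether all arrays were normalized together was not determined, and each comparison of IL-4c with untreated cells spans both sets. After a further quantile normalization of all 16 arrays, 7 members were again called for IL-4c in WT LPM and 8 in place of 5 in KO LPM. In the deposited values, replicates of a group correlated at 0.989 to 0.995 over all probe sets. Bhlhe40 signal was 9.57 and 10.07 in WT AM against 7.53 and 7.75 in KO AM, and in untreated LPM 8.64 to 8.75 against 6.50 to 7.11. Under IL-4c it was 8.77 and 8.99 in WT, 8.01 and 7.90 in KO (-0.93 ± 0.19, adjusted p = 0.013), and 8.75 and 8.83 on the arrays labelled LysM, a difference from WT of -0.09 ± 0.19 (SE, adjusted p = 0.84). The Bhlhe40 signal therefore did not check the LysM label. Which exons its probe set covers was not determined, and each LysM direction below rests on the label. The 8 measured LPM markers averaged 10.55 to 11.2 on the LPM arrays and 6.49 to 6.68 on those of WT AM, and the 9 AM markers 9.88 to 10.29 in AM and 5.6 to 6.75 in LPM. In bulk RNA of this kind, fewer dividing cells and less transcript per dividing cell cannot be told apart.

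**Figure D2:**
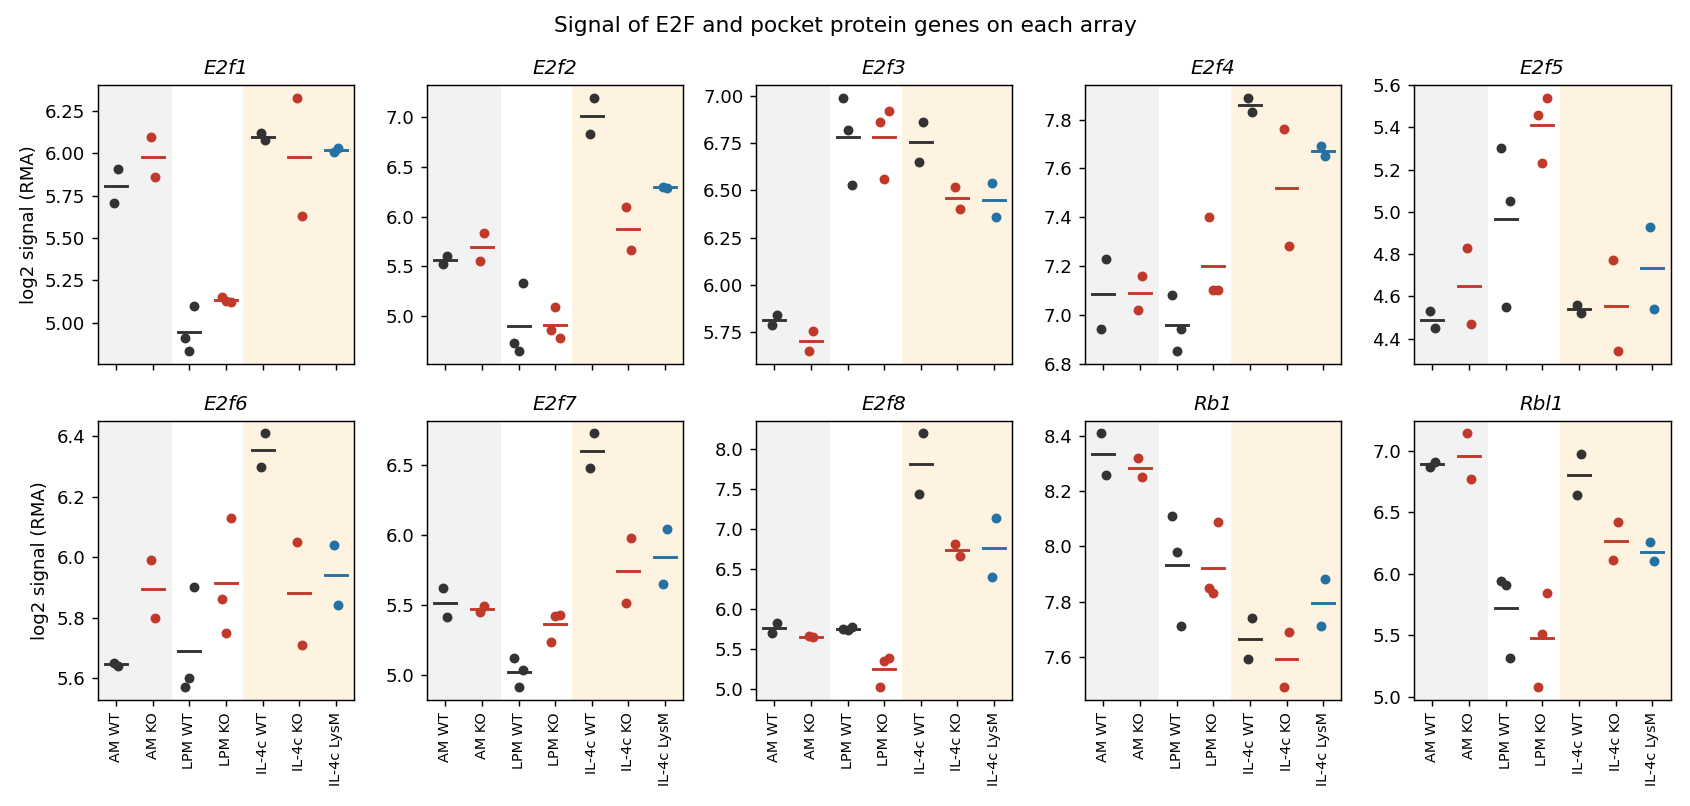
Log2 RMA signal (y axis, a separate range for each gene) of the 10 genes on all 16 arrays, by group (x axis); points are arrays, lines are group means, and shading marks AM (grey) and IL-4c LPM (cream). E2f2, E2f7 and E2f8 are highest on the 2 WT IL-4c arrays. E2f3, shown by its main probe set alone, is lower on the 4 AM arrays than on any LPM array.

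IL-4c raised most of the family in WT LPM. Of the 10 genes 7 were higher after IL-4c than in untreated WT LPM (limma, Benjamini-Hochberg adjusted p under 0.05 over all genes tested), where 22.0% of all tested genes were called higher, and 0 were lower. The 7 were the activators E2f1 and E2f2, the repressors E2f4 and E2f6, the atypical E2f7 and E2f8, and the pocket protein Rbl1. The median difference of the 10 genes was 0.995, against 0.021 over all tested genes.

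E2f2, an activator, read 4.73, 4.65 and 5.33 in untreated WT LPM and 6.83 and 7.19 after IL-4c. The difference of 2.11 ± 0.20 (SE) was a 4.31-fold rise (adjusted p = 8.8e-07), with no overlap between the groups. E2f1, the activator also tied to apoptosis, read 4.91, 4.83 and 5.10 before and 6.12 and 6.08 after, a rise of 2.22-fold (1.15 ± 0.17, adjusted p = 5.2e-05). The third activator, E2f3, showed no called rise with its main probe set. Its other probe set averaged 5.34 in untreated WT LPM and 5.73 after IL-4c, with overlapping arrays, so the direction depended on the probe set. Its main probe set read 6.99, 6.82 and 6.53 in untreated WT LPM and 6.65 and 6.86 after IL-4c, overlapping values, with a difference of -0.03 (95% interval -0.35 to 0.29, adjusted p = 0.90).

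Both atypical factors were among the strongest responders in WT. E2f8 read 5.76, 5.74 and 5.78 in untreated WT LPM and 7.44 and 8.20 after IL-4c. It rose 4.17-fold (2.06 ± 0.21, adjusted p = 2.1e-06), and both IL-4c arrays lay above all 3 untreated arrays. E2f7 read 5.12, 4.91 and 5.03 before and 6.48 and 6.73 after, a 3-fold rise (1.58 ± 0.16, adjusted p = 1.6e-06) with no overlap.

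Smaller rises were measured for the repressor side. E2f4, which accounts for much of the E2F bound in resting cells, read 7.08, 6.85 and 6.94 before and 7.89 and 7.83 after, a 1.87-fold rise (0.91 ± 0.15, adjusted p = 2.1e-04). E2f6, the Polycomb-linked repressor, read 5.57, 5.60 and 5.90 before and 6.30 and 6.41 after, a 1.59-fold rise (0.66 ± 0.15, adjusted p = 0.0023). E2f5, the partner of Rbl1 and Rbl2 in quiescent cells, read 5.30, 4.55 and 5.05 before and 4.56 and 4.52 after, a difference of -0.43 that missed the threshold (adjusted p = 0.10). E2f5 was above the array median on 7 of 16 arrays, the fewest of the 10 genes.

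The pocket proteins parted in WT LPM under IL-4c. Rbl1 (p107), whose gene is a known E2F target, read 5.94, 5.91 and 5.32 in untreated cells and 6.64 and 6.97 after IL-4c, a 2.12-fold rise (1.08 ± 0.22, adjusted p = 9.6e-04). Rb1, the retinoblastoma protein gene, read 8.11, 7.98 and 7.71 before and 7.59 and 7.74 after; the difference of -0.27 did not pass (95% interval -0.57 to 0.03, adjusted p = 0.14). Rbl2 (p130), the pocket protein of quiescent cells, fell 1.37-fold (-0.46 ± 0.13, adjusted p = 0.0084), from 6.43, 6.75 and 6.53 to 6.08 and 6.15. All 7 member calls held when any 1 of the 5 arrays was left out.

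In KO LPM the response included fewer members. Of the 10 genes 4 were higher after IL-4c (21.9% of all tested genes) and 1 was lower (15.4% of all tested genes), and the median difference was 0.355 against 0.038 over all tested genes. E2f8 read 5.03, 5.36 and 5.39 in untreated KO LPM and 6.82 and 6.67 after IL-4c, a 2.8-fold rise (1.49 ± 0.21, adjusted p = 7.6e-05). E2f2 read 4.86, 5.09 and 4.78 before and 6.10 and 5.66 after, a 1.96-fold rise (0.97 ± 0.20, adjusted p = 0.0012). Neither gene's groups overlapped.

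E2f1 read 5.15, 5.13 and 5.12 in untreated KO LPM and 6.33 and 5.63 after IL-4c, a 1.8-fold rise (0.85 ± 0.17, adjusted p = 9.9e-04) in which the 2 IL-4c arrays lay far apart. Rbl1 read 5.08, 5.51 and 5.84 before and 6.11 and 6.42 after, a 1.72-fold rise (0.78 ± 0.22, adjusted p = 0.011). E2f5 fell 1.8-fold (-0.85 ± 0.20, adjusted p = 0.0038), from 5.46, 5.23 and 5.54 to 4.77 and 4.34. The calls of Rbl1 and E2f5 were lost without KO IL-4c replicate 2 (differences of 0.63 and -0.63, adjusted p = 0.10 and 0.063).

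Members called in WT but not in KO were E2f4, E2f6 and E2f7. E2f7 read 5.23, 5.42 and 5.43 in untreated KO LPM and 5.51 and 5.98 after IL-4c, a difference of 0.39 (95% interval 0.05 to 0.73, adjusted p = 0.066) that passed after centring the arrays (0.44, adjusted p = 0.039) or quantile-normalizing them again (0.41, adjusted p = 0.046). E2f4 went from 7.40, 7.10 and 7.10 to 7.76 and 7.28 (0.32, adjusted p = 0.11). E2f6 went from 5.86, 5.75 and 6.13 to 6.05 and 5.71 (-0.03, adjusted p = 0.89). E2f3 (-0.32, adjusted p = 0.11) and Rb1 (-0.34, adjusted p = 0.073) also missed the threshold in KO, and both passed as lower after the further quantile normalization (-0.41 and -0.43, adjusted p = 0.035 and 0.022). The other E2f3 probe set read 5.62, 5.57 and 5.83 before and 5.14 and 5.43 after in KO, without overlap. With the mean of its probe sets E2f3 passed as lower (-0.35, adjusted p = 0.048).

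Whether the IL-4c response itself differed by genotype was tested as an interaction, the KO response minus the WT response. E2f7 passed: its response was smaller in KO by 1.20 on the log2 scale (-1.2 ± 0.22, 95% interval -1.67 to -0.72, adjusted p = 0.022). This was 1 of 10 genes, where 0.146% of all tested genes had a called interaction in this direction. E2f2 had an interaction of similar size that was not called (-1.13, 95% interval -1.73 to -0.54, adjusted p = 0.082). E2f6 (-0.70, adjusted p = 0.15), E2f4 (-0.58, adjusted p = 0.24) and E2f8 (-0.57, adjusted p = 0.44) were not called, and for Rb1 the value was -0.07 (95% interval -0.49 to 0.36). All 10 estimates were below 0, also after renormalizing or centring the arrays, with a median of -0.497. The E2f7 call was kept in 5 of 10 refits that each left out 1 array, with values from -1.43 to -0.96; it was lost without untreated WT replicate 2 or 3, untreated KO replicate 2, WT IL-4c replicate 2 or KO IL-4c replicate 1.

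**Figure D3:**
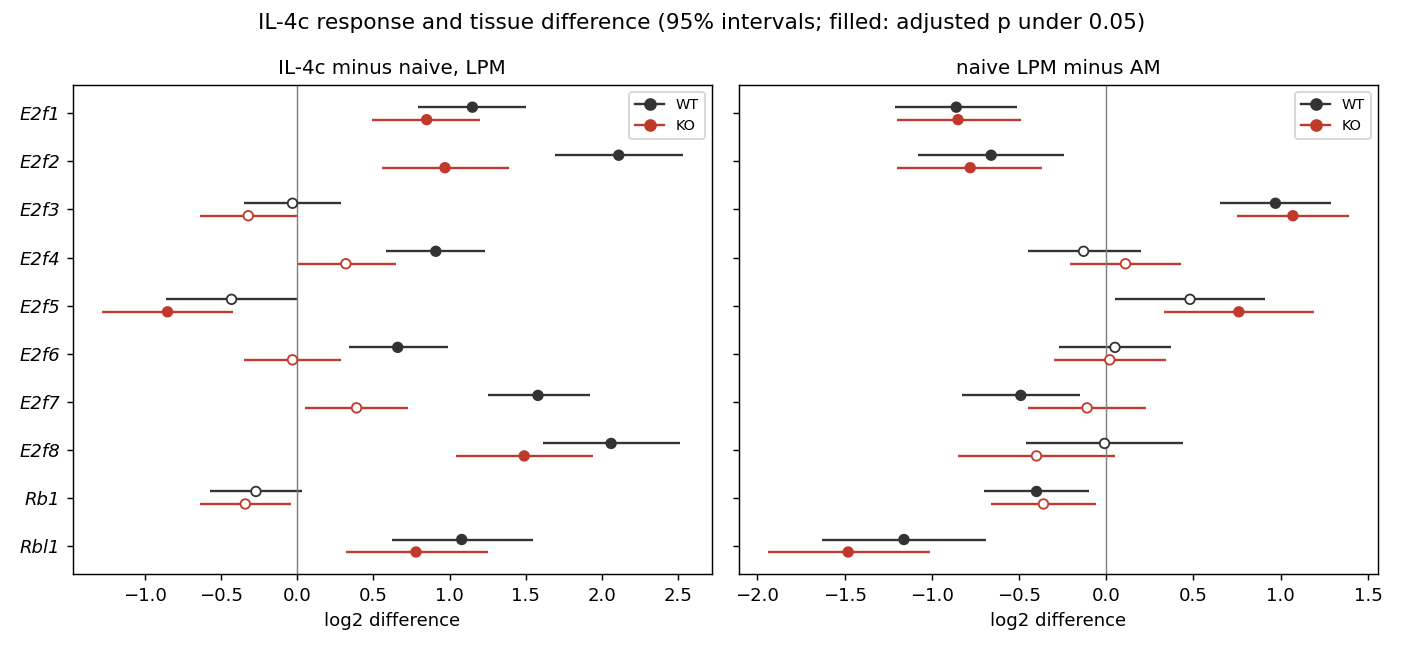
Log2 differences (x axis) of the 10 genes (y axis) for IL-4c minus untreated LPM (left) and untreated LPM minus AM (right), in WT (black) and KO (red); bars are 95% intervals from limma and filled points have an adjusted p under 0.05. On the left, 7 genes are called higher in WT and 4 in KO, and the E2f7 intervals of WT and KO do not overlap.

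Set side by side after IL-4c, 3 of the 10 genes were lower in KO than in WT LPM, E2f2, E2f7 and E2f8, where 1.50% of all tested genes were called lower. The median difference of the 10 genes was -0.407, against -0.017 over all tested genes. E2f2 read 6.10 and 5.66 in KO against 6.83 and 7.19 in WT, 2.18-fold lower (-1.13 ± 0.22, adjusted p = 0.0087). E2f8 read 6.82 and 6.67 in KO against 7.44 and 8.20 in WT, 2.1-fold lower (-1.07 ± 0.23, adjusted p = 0.017). E2f7 read 5.51 and 5.98 in KO against 6.48 and 6.73 in WT, 1.81-fold lower (-0.86 ± 0.17, adjusted p = 0.013).

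In each of the 3 genes both KO arrays lay below both WT arrays. With 2 arrays a group these calls were not robust: without WT IL-4c replicate 2 all 3 were lost, although the differences stayed negative (E2f2 at most -0.91, E2f7 -0.62, E2f8 -0.70 over all refits). Without KO replicate 1 the calls of E2f7 and E2f8 were lost, and without KO replicate 2 those of E2f2 and E2f8. When the variance was taken from the 4 arrays compared alone, none of the 3 passed (adjusted p = 0.053, 0.096 and 0.091 for E2f2, E2f7 and E2f8).

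The other 7 genes were not called in this comparison. E2f1 read 6.33 and 5.63 in KO and 6.12 and 6.08 in WT, so that the WT arrays lay between the KO arrays (-0.12, 95% interval -0.51 to 0.27). E2f6 (6.05 and 5.71 against 6.30 and 6.41) and Rbl1 (6.11 and 6.42 against 6.64 and 6.97) were lower on both KO arrays than on both WT arrays, with differences of -0.47 (adjusted p = 0.14) and -0.55 (adjusted p = 0.26). E2f4 differed by -0.34 (95% interval -0.70 to 0.01) and E2f3 by -0.29 (-0.64 to 0.06). E2f5 read 4.77 and 4.34 in KO and 4.56 and 4.52 in WT. Rb1 read 7.49 and 7.69 in KO and 7.59 and 7.74 in WT, overlapping values (-0.07, 95% interval -0.40 to 0.25).

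The arrays labelled LysM gave 2 lower genes, E2f7 and E2f8, where 3.87% of all tested genes were called lower against the same WT arrays. E2f8 read 6.40 and 7.14, 2.06-fold below WT (-1.04 ± 0.23, adjusted p = 0.011), and E2f7 5.65 and 6.04, 1.69-fold below WT (-0.76 ± 0.17, adjusted p = 0.014). E2f2 read 6.30 and 6.29, below both WT arrays, and missed the threshold (-0.72, adjusted p = 0.051); it passed under 3 of the 9 other settings, with an adjusted p of 0.044 after a further quantile normalization. Both calls were lost without WT IL-4c replicate 2 and without LysM replicate 1. They were also lost with the 4 arrays fitted alone (adjusted p = 0.11 for E2f7 and 0.16 for E2f8).

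Because KO and LysM were compared with the same 2 WT arrays, the 2 sets of differences are not independent. For Rbl1 the values were -0.55 in KO and -0.63 in LysM (adjusted p = 0.13), for E2f6 -0.47 and -0.42 (adjusted p = 0.14), for E2f3 -0.29 and -0.30, and for E2f1 -0.12 and -0.08. Compared directly, LysM and KO differed in 0 of the 10 genes by limma, with 0 at an unadjusted p under 0.05; 0.0172% of all tested genes were called in that comparison. Its intervals still allow differences, for E2f8 from -0.46 to 0.52 and for E2f2 from -0.05 to 0.87.

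**Figure D4:**
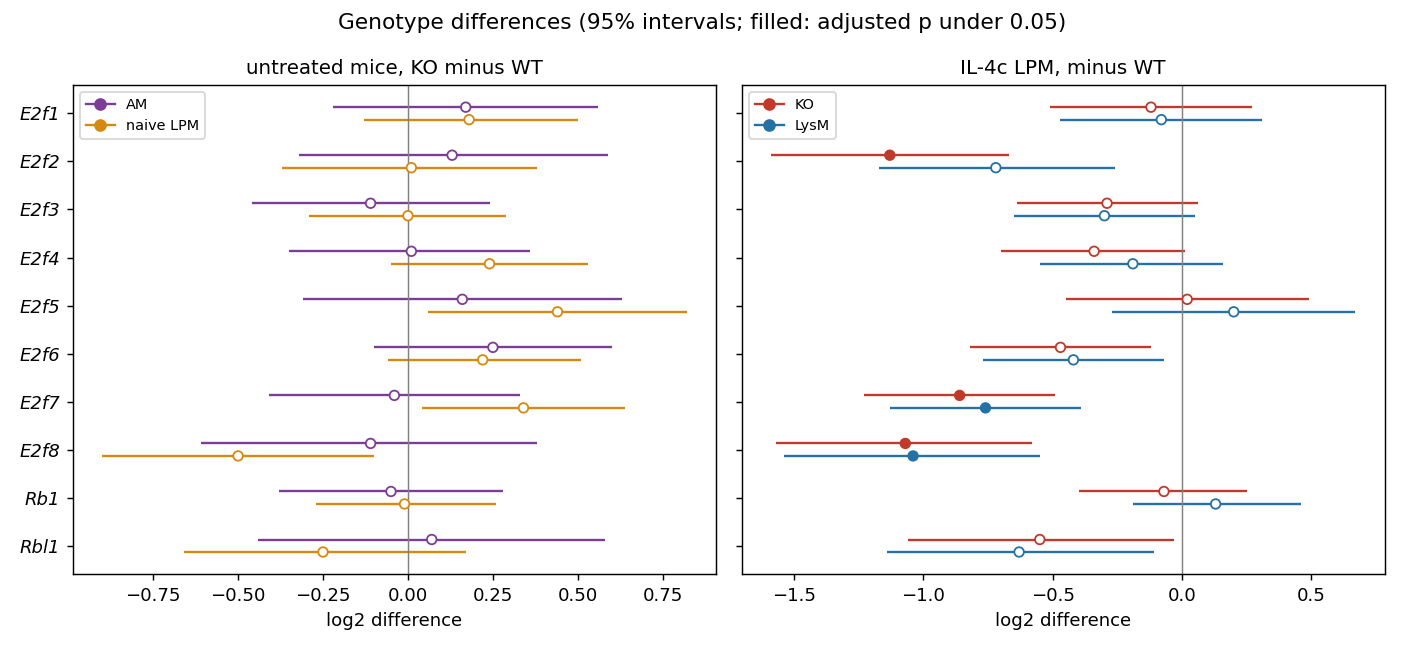
Log2 differences (x axis) of the 10 genes (y axis): KO minus WT in untreated AM and LPM (left), and KO or LysM minus the shared WT arrays in IL-4c LPM (right); bars are 95% intervals from limma and filled points have an adjusted p under 0.05. No gene is called on the left; E2f2, E2f7 and E2f8 in KO and E2f7 and E2f8 in LysM are called lower on the right.

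Without IL-4c, loss of Bhlhe40 changed none of the 10 genes past the threshold. In AM the count was 0 by limma, where 0.120% of all tested genes were called, and 0 genes had an unadjusted p under 0.05. E2f1 read 5.71 and 5.91 in WT AM and 6.10 and 5.86 in KO AM, and E2f8 5.71 and 5.83 against 5.67 and 5.65. Rb1 read 8.41 and 8.26 against 8.32 and 8.25. The largest AM difference was that of E2f6, 5.65 and 5.64 in WT against 5.99 and 5.80 in KO (0.25, 95% interval -0.10 to 0.60).

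In untreated LPM the count was again 0 by limma, where 1.88% of all tested genes were called, and 3 genes had an unadjusted p under 0.05. E2f8 was lower on all 3 KO arrays than on all 3 WT arrays (-0.50, 95% interval -0.90 to -0.10, adjusted p = 0.21). E2f7 was higher on all 3 KO arrays than on all 3 WT arrays (0.34, 95% interval 0.04 to 0.64, adjusted p = 0.27). E2f5 differed by 0.44 (0.06 to 0.82, adjusted p = 0.26), with overlapping arrays. Beside these values, untreated KO replicate 3 stood apart in cell cycle genes: the 22 late genes averaged 5.38, 5.46 and 6.16 on the KO arrays and 5.76 to 5.78 on the WT arrays. The 7 B cell markers averaged 4.36 to 5.17 on the KO arrays and 4.58 to 4.74 on the WT arrays. The 5 of them tested averaged 5.49, 5.29 and 4.64 on KO replicates 1, 2 and 3, so replicate 3 was the lowest. On the WT arrays they averaged 5.11, 4.97 and 4.93. The part of these markers in the result was not tested. No member was called when any 1 of these arrays was left out. The difference between AM and LPM in the effect of genotype was called for 0 genes by limma, 0 at an unadjusted p under 0.05, where 0.249% of all tested genes were called.

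Between tissues, untreated WT LPM differed from WT AM in 6 of the 10 genes, with 1 higher in LPM (21.2% of all tested genes) and 5 lower (17.1%). The higher one was E2f3, at 6.99, 6.82 and 6.53 in LPM against 5.79 and 5.84 in AM, 1.96-fold (0.97 ± 0.15, adjusted p = 6.8e-05). This depended on the probe set: the other E2f3 probe set read 5.50, 5.21 and 5.31 in LPM and 5.16 and 5.01 in AM, a difference of 0.26 (adjusted p = 0.27). The choice of the second probe set as an alternative was made after seeing the data.

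Rbl1 was lower in LPM, at 5.94, 5.91 and 5.32 against 6.87 and 6.91 in AM, 2.24-fold (-1.16 ± 0.22, adjusted p = 4.5e-04). E2f1 was lower in LPM, at 4.91, 4.83 and 5.10 against 5.71 and 5.91 (-0.86 ± 0.17, adjusted p = 5.4e-04). For both genes every LPM array lay below every AM array. E2f2 (-0.66, adjusted p = 0.014), E2f7 (-0.49, adjusted p = 0.022) and Rb1 (-0.40, adjusted p = 0.034) were also lower in LPM, less firmly. The E2f2 and Rb1 calls were each kept in 1 of 5 refits without 1 array, E2f2 without untreated LPM replicate 3 and Rb1 without untreated LPM replicate 1, and the E2f7 call was lost without AM replicate 1 or LPM replicate 2.

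In KO mice the tissue difference was called for 5 genes, 2 higher in LPM (17.3% of all tested genes) and 3 lower (22.8%). Both counts lay near these shares. Rbl1 was 2.78-fold lower (-1.48 ± 0.22, adjusted p = 4.2e-05), at 5.08, 5.51 and 5.84 in LPM against 7.14 and 6.77 in AM. E2f1 (-0.85, adjusted p = 6.2e-04) and E2f2 (-0.78, adjusted p = 0.0044) were lower, and E2f3 was higher by 1.07 (adjusted p = 2.3e-05; 0.58, adjusted p = 0.014, with its other probe set). E2f5 was higher by 0.76 (adjusted p = 0.0065), at 5.46, 5.23 and 5.54 in LPM against 4.83 and 4.47 in AM. The E2f2 and E2f5 calls were lost without KO AM replicate 2. Beside this difference, the 6 neutrophil markers averaged 4.99 to 5.14 in AM and 3.91 to 4.10 in untreated LPM, with 2 of 4 tested called lower in WT LPM and 3 of 4 in KO. The 8 markers of monocytes, dendritic cells and small peritoneal macrophages averaged 4.23 to 4.50 in AM and 5.24 to 5.61 in untreated LPM, with 4 of 5 tested higher and 1 lower in WT LPM. The 7 B cell markers averaged 4.4 to 4.54 in AM and 4.36 to 5.17 in untreated LPM, with 3 of 5 tested higher and 1 lower in WT LPM. Their part in the result was not tested. Both genotypes, measured on separate arrays, gave E2f1, E2f2 and Rbl1 lower and E2f3 higher in LPM.

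Ordered by group mean, E2f8 spanned 2.56 log2 units, the most of the 10 genes: untreated KO LPM was lowest, then KO AM, untreated WT LPM and WT AM, of which the last 2 overlapped, then KO and LysM LPM under IL-4c, whose arrays overlapped, and WT IL-4c LPM above all. E2f2 spanned 2.11, with untreated LPM of both genotypes lowest and overlapping, AM of both genotypes overlapping next, and then, under IL-4c, KO, whose arrays overlapped those of KO AM, LysM and WT. E2f7 spanned 1.59 and E2f1 1.15, both lowest in untreated WT LPM and highest in WT IL-4c LPM. Rbl1 spanned 1.47, from untreated KO LPM to KO AM, with WT AM and WT IL-4c LPM overlapping near the top. With its main probe set E2f3 spanned 1.07, with KO AM lowest, WT AM just above it without overlap, and all LPM groups higher. In that probe set LysM and KO under IL-4c overlapped each other, as did WT under IL-4c and untreated LPM of both genotypes. With the other E2f3 probe set, AM of both genotypes overlapped KO LPM under IL-4c.

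The other 4 genes spanned less, E2f5 0.92, E2f4 0.91, Rb1 0.74 and E2f6 0.72. E2f4 read 6.94 and 7.23 in WT AM and 7.02 and 7.16 in KO AM, overlapping untreated LPM, and 7.69 and 7.65 on the LysM arrays, between the KO and WT IL-4c arrays in mean. E2f5 was highest in untreated KO LPM and read 4.53 and 4.45 in WT AM and 4.93 and 4.54 on the LysM arrays. Rb1 was highest in AM and lowest under IL-4c, with 7.71 and 7.88 on the LysM arrays overlapping untreated LPM. E2f6 read 6.04 and 5.84 on the LysM arrays, within the range of the KO arrays, and was highest in WT IL-4c LPM.

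Across the 7 group means, as a description of 7 points that share arrays and normalization, E2f2 correlated with E2f7 at 0.95 and with E2f8 at 0.92, and E2f7 with E2f8 at 0.91. E2f3 correlated negatively with Rb1 (-0.77) and Rbl1 (-0.72), and E2f5 with Rbl1 (-0.86). The closest tested genes over the same means were ranked after leaving out predicted or numbered symbols such as Gm or Rik. Those most like E2f8 were Ndufb10 (0.995), Atf5 (0.995) and Foxm1 (0.994), and those most like E2f2 were Nfatc2ip (0.997), Pkmyt1 (0.996) and Eif2b5 (0.995). Rad54b (0.993), Asic4 (0.992) and Ran (0.987) were most like E2f7, and Wdr62 (0.996), Cisd2 (0.992) and Mvp (0.988) most like E2f1. Hat1 (0.993), Nfil3 (0.992) and Mbnl3 (0.989) were most like Rbl1, and Oxr1 (0.997), Sec11c (0.993) and Slfn3 (0.992) most like E2f3.

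The DP partners and the MuvB proteins, with which E2Fs and pocket proteins assemble, moved with IL-4c in part. Of the 10 tested genes of this list 6 rose and 1, Rbl2, fell in WT LPM, and 5 rose in KO LPM. Of all tested genes 22.0% rose and 19.2% fell in WT, and 21.9% rose in KO. After IL-4c 1.50% of all tested genes were called lower in KO than in WT, and 3.87% in LysM. Foxm1, which drives late cell cycle genes from MuvB, rose 4.92-fold in WT (2.3 ± 0.24) and 3.83-fold in KO (1.94 ± 0.24), and Mybl2, its partner on MuvB, 2.31-fold and 1.63-fold. Tfdp1, the main DP partner, rose 1.67-fold in WT and 1.45-fold in KO. After IL-4c Foxm1 was the 1 gene of the list called lower in KO than in WT, at 6.90 and 6.55 against 7.48 and 7.96 (2.0-fold, -1 ± 0.26, adjusted p = 0.048), and the 1 called lower in LysM, at 6.15 and 7.13 (2.11-fold, adjusted p = 0.018). The KO call was lost without any 1 of the 4 arrays, after centring, under either other dim filter and with the 4 arrays fitted alone, and the LysM call without WT replicate 2 or LysM replicate 1 or with its 4 arrays fitted alone. The KO count of 5 fell to 2 without KO IL-4c replicate 1. The list was drawn up with earlier results of these data known, and its counts are a description.

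The cyclins, kinases and inhibitors that set the phosphorylation of the pocket proteins were mixed. Of 15 tested genes 8 rose and 2 fell with IL-4c in WT, with the same counts in KO. The shares of all tested genes were 22.0% higher and 19.2% lower in WT, and 21.9% and 15.4% in KO. Ccne1 (cyclin E1) rose 4.8-fold in WT, from 4.49, 4.69 and 4.69 to 6.71 and 7.07, and 2.03-fold in KO, from 4.94, 5.09 and 4.91 to 6.21 and 5.80. Its response differed by genotype (-1.24 ± 0.24, adjusted p = 0.023); that call was lost without any of 5 arrays, WT IL-4c replicate 2 among them. Ccne2 rose 3.18-fold in WT and 2.09-fold in KO. Cdkn1b (p27), an inhibitor of cyclin E kinase, fell 2.29-fold in WT and 2.39-fold in KO. After IL-4c, Ccne1 (1.85-fold) and Cdk2 (1.71-fold) were lower in KO than in WT, where 1.50% of all tested genes were called lower. Ccne2 (1.88-fold) and Cdk2 (1.5-fold) were lower in LysM (3.87% of all tested genes). Ccnd2 (cyclin D2) was called higher in LysM (1.29 ± 0.37, adjusted p = 0.04), at 7.33 and 5.58 against 4.99 and 5.34 in WT, a difference carried mostly by LysM replicate 1. Both KO arrays, at 6.65 and 6.11, also lay above WT (1.21, adjusted p = 0.086). None of the 5 calls was made without WT IL-4c replicate 2, nor the LysM ones without LysM replicate 1, and the 10 calls for IL-4c in KO fell to 6 without KO IL-4c replicate 1. Between tissues the D-type cyclins stood at opposite ends: in WT, Ccnd1 was 23.5-fold higher and Ccnd2 16.2-fold lower in LPM than in AM, and in KO 16.7-fold higher and 9-fold lower.

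The replication genes that E2Fs drive at the G1/S transition rose almost together. Of 30 tested targets 29 rose with IL-4c in WT LPM (median difference 1.64) and 23 in KO LPM (0.997), and 0 fell in either. Among all tested genes 22.0% rose in WT and 21.9% in KO. Rrm2, a subunit of ribonucleotide reductase, rose 17.1-fold in WT and 6.88-fold in KO, and Tyms (thymidylate synthase) 6.59-fold and 3.82-fold. After IL-4c all 30 lay below WT in KO, with 6 called lower (median -0.679), led by Rrm2 (2.59-fold), Gins1 (2.04-fold), Orc1 (1.99-fold) and Uhrf1 (1.95-fold). In LysM all 30 lay below WT as well, with 21 called lower (median -0.756), led by Rrm2 (2.58-fold), Prim1 (2.21-fold), Tyms (2.19-fold) and Brca1 (2.15-fold). The share of all tested genes called lower was 1.50% in KO and 3.87% in LysM. The LysM count fell to 2 without WT IL-4c replicate 2 or without LysM replicate 1, and the KO count to 1 without WT replicate 2 or KO replicate 1. With only the 4 arrays compared in the fit, 3 targets were lower in LysM and 3 in KO. Orc1, of the origin recognition complex, was the 1 target with a called genotype by IL-4c interaction (-1.13 ± 0.20, adjusted p = 0.013), which was lost without WT IL-4c replicate 2 or KO IL-4c replicate 1.

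The late cell cycle genes that MuvB complexes control followed the same course. All 22 tested rose with IL-4c in WT (median 2.335) and in KO (median 1.528), Plk1 6.68-fold and 4.76-fold, and these counts held when any 1 array was left out. Among all tested genes 22.0% rose in WT and 21.9% in KO. After IL-4c 3 were called lower in KO, Aurka (1.93-fold), Kif4 (1.84-fold) and Ect2 (1.83-fold), and 18 in LysM, led by Bub1 (2.53-fold). The share of all tested genes called lower was 1.50% in KO and 3.87% in LysM. The LysM count was 0 without WT IL-4c replicate 2 or LysM replicate 1, and the KO count 0 without WT replicate 2, KO replicate 1 or KO replicate 2. With only the 4 arrays compared in the fit, 0 were lower in LysM and 1 in KO. The list averaged 7.89 and 8.15 on the WT arrays, 7.32 and 7.35 in KO, and 6.63 and 7.43 in LysM, so that LysM replicate 1 lay below all KO arrays and replicate 2 above them. Beside these IL-4c differences, the 7 B cell markers averaged 4.58 to 4.74 in untreated WT LPM and 3.83 to 4.06 on all IL-4c arrays. The 9 AM markers averaged 5.66 to 5.73 and 6.32 to 6.75, but did not rise as a set. In WT 2 of the 9 were called higher and 1 lower, and 6 lay below 0 (median difference -0.015). Chil3 went from 6.5 to 7.2 in untreated WT LPM to 12.39 to 12.49 under IL-4c, and Car4 from 3.62 to 4.21 to 6.42 to 7.89. The part of these markers in the result was not tested.

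Without IL-4c 0 of the 30 G1/S targets and 0 of the 22 late genes were called between KO and WT by limma in either tissue; without untreated KO replicate 3, 1 late gene was called in LPM. Between tissues 11 G1/S targets were lower in WT LPM than in WT AM and 15 in KO, with 0 higher, among them the primase gene Prim1 (3.33-fold in WT, 2.07-fold in KO). Of the late genes 5 were lower in WT LPM and 10 in KO LPM, led by Bub1b (4.68-fold and 4.63-fold). For both lists, the share of all tested genes called lower was 17.1% in WT LPM and 22.8% in KO LPM. The WT target count fell to 6 without AM replicate 2 or LPM replicate 2 and the KO count to 7 without AM replicate 1. The late genes numbered 3 in WT without AM replicate 1, AM replicate 2 or LPM replicate 3, and in KO from 3 without AM replicate 1 to 16 without LPM replicate 3. In WT they numbered 15 with only the arrays compared in the fit, and in KO 16 with array weights.

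The smaller lists showed no common course. Of 9 tested partners of E2f6 in the Polycomb complex PRC1.6, 2 rose (L3mbtl2 1.54-fold, Wdr5 1.39-fold) and 3 fell in WT LPM after IL-4c, with Mga 1.65-fold and Max 1.47-fold lower. In KO 1 fell, Rnf2 (1.4-fold). Of all tested genes 22.0% rose and 19.2% fell in WT, and 21.9% rose and 15.4% fell in KO. The 2 of 9 partners that rose in WT lay near that share. The 5 calls in WT fell to 3 without WT IL-4c replicate 2, and the KO call was lost without untreated KO replicate 3 or KO IL-4c replicate 2. Of 5 tested apoptosis genes bound by E2f1, 3 fell with IL-4c in WT, Bcl2l11 (1.61-fold), Pmaip1 (1.58-fold) and Casp8 (1.28-fold), and 2 fell in KO, Casp8 (1.54-fold) and Bcl2l11 (1.29-fold); 0 rose in either. The KO count was 1 without untreated KO replicate 3 or KO IL-4c replicate 1.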

How the data were processed

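The deposited values are log2 expression per probe set, made by the authors with RMA according to the submitters' processing notes. RMA subtracts background, quantile-normalizes the probes and combines the probes of a set; its version and the arrays it was run on together are not stated in the labels. Total RNA carried a biotin label, per the labels. The sample titles gave the groups and the replicate numbers. A gene was represented by its probe set of a single symbol with the highest mean. It was tested if its signal was above the median of the array on 2 or more arrays. Group means over all 16 arrays were fitted with limma 3.58.1 (lmFit, contrasts, eBayes) in R 4.3.3, and a Benjamini-Hochberg adjusted p under 0.05 over 11634 genes was taken as a call. The number of arrays limits precision: on simulated data for KO against WT under IL-4c (11634 genes, 200 changed), 28.8% of 1.5-fold and 90% of 2-fold changes were recovered. The simulated noise was normal and independent between genes, so deviations shared by the genes of an array were not included. Each gene also kept the same variance in all groups, so a wider spread among replicates of some groups was not included. Recovery under IL-4c may therefore be overstated. Alternatives were a further quantile normalization, centring, other dim filters, probe set means, other variance models, fits of the compared arrays alone, a block for the replicate number, weights per array, and the omission of single arrays. The members and gene lists were chosen with earlier results of these data known. Named genes were the members, the targeted gene, DP, MuvB and cyclin genes, up to 4 called genes of a list with the largest difference, and the 3 genes closest in pattern to each member spanning over 1 log2 unit. Predicted or numbered symbols were left out of that last ranking.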

Additional observations from a re-analysis of the deposited data

Results flagged for a closer look

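The genotype by IL-4c interaction of E2f7 stood out because the response to IL-4c differed between WT and KO LPM in a direct test, by -1.2 on the log2 scale (limma, Benjamini-Hochberg adjusted p = 0.022). Every untreated KO array lay above every untreated WT array, and after IL-4c both KO arrays lay below both WT arrays.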

How the results depend on the processing

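Of 110 member differences 29 were called. Under the 9 settings apart from leaving out an array 23 of the 29 kept their call under every setting, and 16 kept it when any 1 array was left out. No called difference changed sign, 6 uncalled ones became called under at least 1 setting, and 34 uncalled ones changed sign with no call. With only the arrays compared in the fit, 0 members were called in KO against WT and 0 in LysM against WT under IL-4c. With quantile normalization applied again, 8 members were called for IL-4c in KO LPM, 5 higher and 3 lower, with E2f7, E2f3 and Rb1 added. Leaving out 1 array gave 0 to 3 called members in KO against WT and 0 to 2 in LysM against WT under IL-4c, 0 to 1 for the genotype by IL-4c interaction, 3 to 5 for LPM against AM in WT (3 without AM replicate 1) and 3 to 6 in KO (3 without AM replicate 2). Replicate numbers were not taken to pair the arrays, since the labels tie them to nothing shared: same-numbered arrays deviated together at correlations of -0.071 in AM and -0.139 to 0.066 in untreated LPM. Under IL-4c the correlations were 0.115 to 0.21, over 2 numbers, which does not settle pairing there. With the replicate block, Rb1 in WT LPM against AM was no longer called (-0.39, adjusted p = 0.072), E2f5 there was called (0.43, adjusted p = 0.046), no other member call changed, and 6 members were called in that comparison. Under that block 5 late genes in place of 3 were lower in KO under IL-4c, and 10 in place of 5 lower in WT LPM than in AM. Rb1 there also missed with only the arrays compared (adjusted p = 0.053) and with array weights (adjusted p = 0.055). With an intensity trend and robust variance 11 G1/S targets were lower in KO under IL-4c in place of 6, with quantile normalization again 10, and with only the arrays compared 3; in LysM the last gave 3 in place of 21. Late genes then numbered 1 in place of 3 in KO and 0 in place of 18 in LysM, and 15 in place of 5 for WT LPM against AM. Signal near the array median limits E2f5 most.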
